A study of Mus musculus with 22 samples.

Results

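Mouse neural stem cell cultures that had received no drug were compared here, the floxed lines C1 and C4 with the tet-inducible lines KH2, MSI1 and MSI2. The members were chosen by label: RNA-Seq libraries of untreated lines from embryos of E12.5, which gave 2 floxed and 3 tet libraries, 5 of the 22 samples of the series and 5 of its 14 RNA-Seq samples. The study asked what the RNA-binding proteins Musashi1 and Musashi2 do in these cells, by deleting their genes in floxed lines with 4-hydroxytamoxifen (4-OHT) and by inducing 1 of them in tet lines with doxycycline (Dox). Neither drug was given to the 5 cultures described here, so the comparison is of the starting states on which those experiments were built.

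C1 and C4 both carry floxed alleles of Msi1 and Msi2. C1 has no CreER, the recombinase that 4-OHT activates, and C4 has it. KH2 carries R26-M2rtTA, the Dox-dependent transactivator expressed from the Rosa26 locus, and no Musashi transgene. MSI1 and MSI2 carry R26-M2rtTA together with a Dox-inducible Msi1 or Msi2 cDNA at Col1a1. All 5 cultures came from embryonic cortex and were grown as adherent neural stem cells with growth factors, and all were cut off from their niche, so they model progenitors in a dish and not the ventricular zone. Each line is 1 library, and the labels name a time of 48 h for the floxed lines and 72 h for the tet lines. The set of lines, their strain background, the time label and any difference in culture or library preparation cannot be told apart, because each goes with the set. The p-values measure the spread between these lines, and no source says that separate cultures of 1 line were sequenced.

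Cortical neural stem cells, or radial glia, keep dividing under growth factors such as EGF and FGF2 and under Notch signalling, in which a Delta or Jagged ligand on 1 cell activates a Notch receptor on its neighbour and switches on Hes genes that hold back differentiation. They express intermediate filaments such as Nestin and Vimentin and stand on a matrix of laminin, collagen and fibronectin. Like many other proliferating cells they run glycolysis at a high rate, and low oxygen raises glycolytic enzymes further through the factor HIF1.

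The libraries held 12901123 to 20660115 gene counts in the tet lines and 45750593 to 56980623 in the floxed lines. The levels printed for single genes are counts scaled to a common depth (CPM) with TMM, edgeR's correction for differences in composition. They are listed in the order C1 and C4 for the floxed lines and KH2, MSI1 and MSI2 for the tet lines. Sums over gene lists, and counts of marker genes under 1 CPM in all lines, use library totals with no TMM factor. Every log2 difference is floxed minus tet. Adjusted p-values come from edgeR's quasi-likelihood test with Benjamini-Hochberg adjustment over the 12211 genes tested in RNA, or over all genes of the fit in question for E13.5 and for footprints. Mitochondrially encoded genes took 7.67 to 7.98% of the counts in the floxed lines and 5.09 to 5.75% in the tet lines. The counts deposited were 32.1 to 32.7% of the reads on which the deposited RPKM were scaled in the floxed lines and 15 to 15.6% in the tet lines. Neither of these ranges overlapped between the sets, and with 2 lines against 3 the exact permutation test gave its smallest possible two-sided p, 0.2, for each. Their part in the results was not tested.

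The cultures carried the label's cell type in both sets. The 19 neural stem and radial glia genes measured summed to 16226 to 16392 CPM in the floxed lines and 13234 to 15151 CPM in the tet lines, and none of the 19 was under 1 CPM in all 5 lines. Vim, the intermediate filament Vimentin, stood at 7645 and 7807 CPM in the floxed lines and 6997, 6751 and 6031 CPM in the tet lines (log2 difference 0.23 ± 0.14 (SE), adjusted p = 0.177), a difference that did not pass the test, although it did with DESeq2 (adjusted p = 0.0387). Cd24a, a surface protein of young neurons and progenitors, stood at 22.7 and 18 against 24.2, 24.6 and 24.4 CPM (log2 difference -0.26 ± 0.13 (SE), adjusted p = 0.117) and did not pass either. Fn1, which encodes fibronectin, differed most of the 3 markers, at 1574 and 1749 against 299, 239 and 246 CPM (log2 difference 2.67 ± 0.13 (SE), adjusted p = 2.41e-05). Both floxed lines were above all tet lines for Fn1. The sets did not overlap for any of the 3 markers, as for 79.5% of all genes tested. Fn1 lies on chromosome 1 at 71632094 to 71699774 of mm9, which is also the build of all other coordinates here.

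Markers of other cells that a cortical culture could hold were low but not equal. Of 13 meningeal and fibroblast genes, 8 were under 1 CPM in all 5 lines and 2 were at 0, and the list summed to 54.6 to 72.5 CPM in the floxed and 19.1 to 21.3 CPM in the tet lines. Foxc1, a forkhead factor of meninges and mesenchyme, made up most of this, with 51.8 and 61.6 CPM in the floxed lines and 14.5, 14.4 and 16.1 CPM in the tet lines. The 10 endothelial genes summed to 13.4 to 21.8 against 4.17 to 4.34 CPM, with 8 of 10 under 1 CPM in all lines. The 10 microglial genes measured summed to 3.81 to 4.17 against 0.878 to 1.94 CPM, with 9 of 10 under 1 CPM and 5 at 0. The 6 neural crest and Schwann cell genes summed to 1226 to 1290.1 against 511 to 1281 CPM, most of it Ednrb, and the 9 choroid plexus genes to 9 to 13.6 against 12.3 to 23.2 CPM. On the filter used here 1 of 3 meningeal, 2 of 2 endothelial, 1 of 1 microglial and 2 of 4 crest genes passed as higher in the floxed lines, but genes low in the tet lines entered through the floxed lines alone. With at least 1 CPM asked of all 5 lines the counts were 1 of 2, 1 of 1, none tested and 0 of 2, and the 1 choroid plexus gene did not pass. The part of such cells in later results was not tested. In bulk RNA, fewer cells of a type and less RNA per cell cannot be told apart, here or in any later result.

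The 2 sets differed across the transcriptome. Of the 12211 genes tested, 8093 passed the test (66.3%), 4028 higher in the floxed lines (33.0%) and 4065 lower (33.3%). A count of members can only be read against these shares. A gene that was near 0 in 1 set entered the test only through the other. With at least 1 CPM asked of all 5 lines, 10708 genes were tested, of which 3537 passed as higher and 3497 as lower. The median log2 difference over all genes was 0.00, with quartiles of -0.71 and 0.68, and the genes that passed differed by a median of 2.09-fold. A difference of at least 2-fold was passed by 4291 genes (35.1%), 2073 higher (17.0%) and 2218 lower (18.2%). The levels of the 2 sets did not overlap for 9704 genes (79.5%).

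Lines of 1 set were close to each other. Among 8837 genes with a mean of at least 10 CPM, 47 (0.532%) differed 2-fold between C1 and C4 and 27 between KH2 and MSI1. MSI2 was farther from its own set, with 242 genes against KH2 and 222 against MSI1. Between a floxed and a tet line the number was 2491 to 2667, or 28.2% to 30.2%.

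The balance of these calls changed with the scaling. With the deposited RPKM in place of counts, 8285 of 9252 genes that passed were higher in the floxed lines and 967 were lower, and the median over all genes moved to 1.03. The log2 ratio of the counted share of reads between the sets was 1.08. All differences given here are from TMM-scaled counts and so are relative to the typical gene, and 18 of 43 gene lists had a median whose sign was the opposite under the RPKM scaling. These were lists with medians below 0 (neural stem, dorsal forebrain, midbrain to cord, oligodendrocyte, choroid plexus, matrix glycoproteins, proteoglycans, matrix enzymes, Wnt, Hedgehog, interferon, cholesterol, fatty acid, serine and ATF4, nuclear oxidative phosphorylation, p53, imprinted and engineered genes). Relative to the median of all genes on that scale, 17 of the 18 were again negative.

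**Figure D1:**
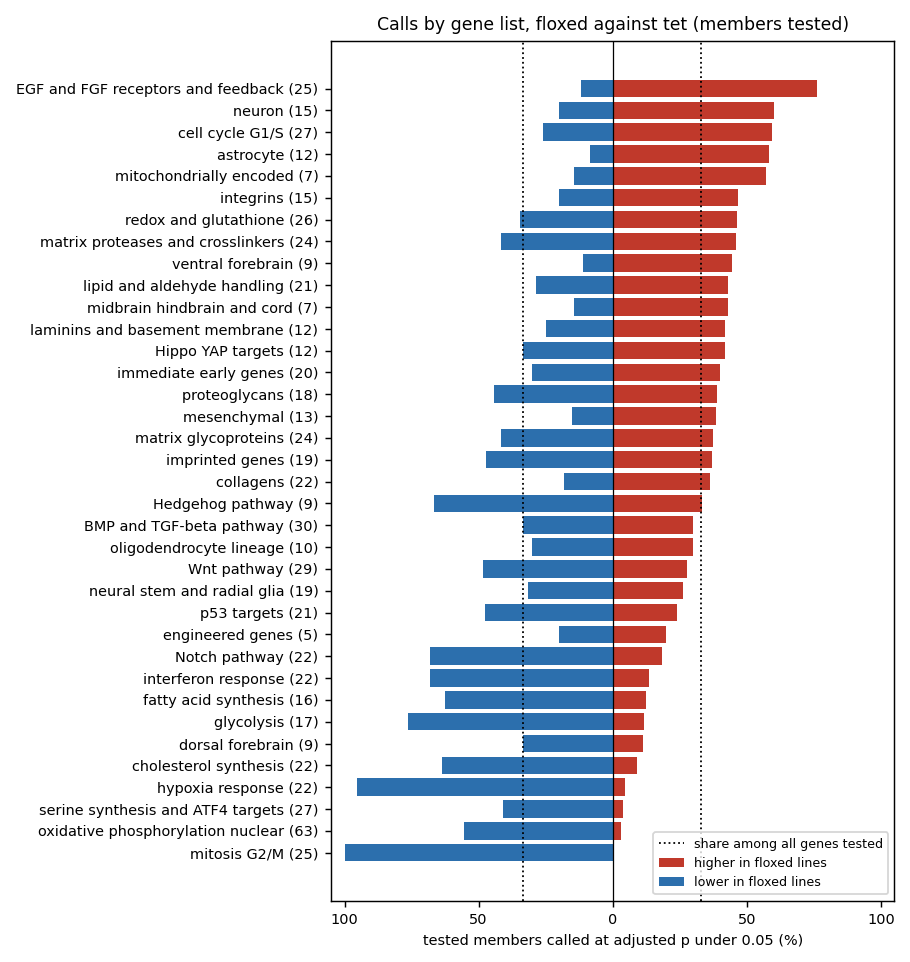
Percent of the tested members of each gene list that passed the test as higher (red, to the right) or lower (blue, to the left) in the floxed lines, for the 36 lists with at least 5 tested members (number in brackets). Dotted lines mark the shares among all genes tested, 33.0% higher and 33.3% lower, and the mitosis list reaches 100% on the lower side.

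The tet lines of E13.5 gave an alternative reference. Untreated cultures labelled KH2 and MSI1 were also sequenced from E13.5, MSI1 as 2 runs that were summed. The stage is the age of the embryo from which a culture was taken. The KH2 and MSI1 cultures of E13.5 thus came from other embryos than those of E12.5. The floxed lines were set against them in a fit of its own. This fit shares the libraries of C1 and C4 with the first, so its values are placed side by side as levels and not counted as a repeat. In it 6554 of 11828 genes passed (55.4%), 27.7% higher and 27.7% lower. Counts of list members against E13.5 can only be read against these shares.

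Genes of mitosis were lower in the floxed lines without exception among those listed. All 25 listed genes of G2 and mitosis passed as lower, none as higher, and their median log2 difference was -2.94 against 0.00 for all genes. Ccnb2, a B-type cyclin that drives entry into mitosis, had 18.1 and 9.58 CPM in the floxed lines and 199, 201 and 190.2 CPM in the tet lines (log2 difference -3.83 ± 0.28 (SE), adjusted p = 7.62e-05). Cenpf, a kinetochore protein, had 105 and 69.9 against 918, 859.9 and 1108 CPM (log2 difference -3.46 ± 0.23 (SE), adjusted p = 5.21e-05). Nusap1, a spindle protein, had 23.2 and 26 against 253, 223 and 362 CPM. For each of these 3 genes both floxed lines lay far below the lowest tet line. The proliferation marker Mki67, chosen after its values were seen, had 298 and 300.2 against 2288, 2077 and 2540.1 CPM, with 7.7-fold less in the floxed lines. Ccnb1, the cyclin of the same family that is degraded at anaphase, had 1.48 and 1.1 against 16.8, 12.7 and 17.9 CPM. Set against E13.5, all 25 genes were again called lower in the floxed lines, with a median of -2.74. All 25 also passed as lower under each other scaling, test, filter and choice of libraries run, the RPKM scaling included, although between the drug-treated libraries of the same lines the median was -1.84. With genes that overlap an opposite-strand exon left out, 20 of the 25 remained to be tested and all 20 were lower.

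Genes of G1 and the start of S phase moved the other way in part. Of 27 tested, 16 were higher, 7 lower and 4 did not pass, with a median of 0.58. Ccnd1, cyclin D1, the growth factor-dependent cyclin of G1, had 806 and 592 CPM in the floxed lines and 90.6, 60.8 and 86.9 CPM in the tet lines (log2 difference 3.14 ± 0.21 (SE), adjusted p = 5.49e-05), although 21.3% of its exon bases lie under an exon of the opposite strand. Cdc6 and Cdt1, which load the replicative helicase, had log2 differences of 2.45 and 1.87, and Ccne2, a cyclin E, of 2.11. Inhibitors of cyclin-dependent kinases were among the 7 that were lower. Cdkn1c, which encodes p57, had 14.8 and 12.8 against 90.8, 139 and 73 CPM, and Cdkn1b, which encodes p27, had 75.6 and 64.2 against 265, 265 and 266 CPM. Cdkn1a (p21) and Cdkn2c (p18) differed by -1.70 and -1.90. The comparison with E13.5 gave no common direction for this list, with 5 genes higher, 9 lower and a median of -0.14. Ccnd1 had 452 and 349 CPM in KH2 and MSI1 of E13.5, between the 2 sets of E12.5, and Cdt1 had 91 and 77.2 CPM in KH2 and MSI1 of E13.5, at the level of the floxed lines. Cdkn1c and Cdkn1b were lower in the floxed lines than in these too, with log2 differences of -2.27 and -1.27.

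Among 21 tested targets of p53, 5 were higher (23.8%) and 10 lower (47.6%), beside 33.0% and 33.3% among all genes tested. Bbc3, a pro-apoptotic BH3 protein, had 4.26 and 4.8 CPM in the floxed lines and 37.5, 41.6 and 52.1 CPM in the tet lines, and Gdf15, a secreted stress cytokine, had 0.297 and 0.44 against 7.45, 4.21 and 11.1 CPM. Trp53 itself had 107 and 107 against 52.5, 49.8 and 48 CPM, and the death receptor Fas had 54.9 and 29.2 against 10.3, 12.54 and 11.9 CPM. Trp53 and Fas were above every tet line in both floxed lines, and Bbc3 and Gdf15 were below.

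**Figure D2:**
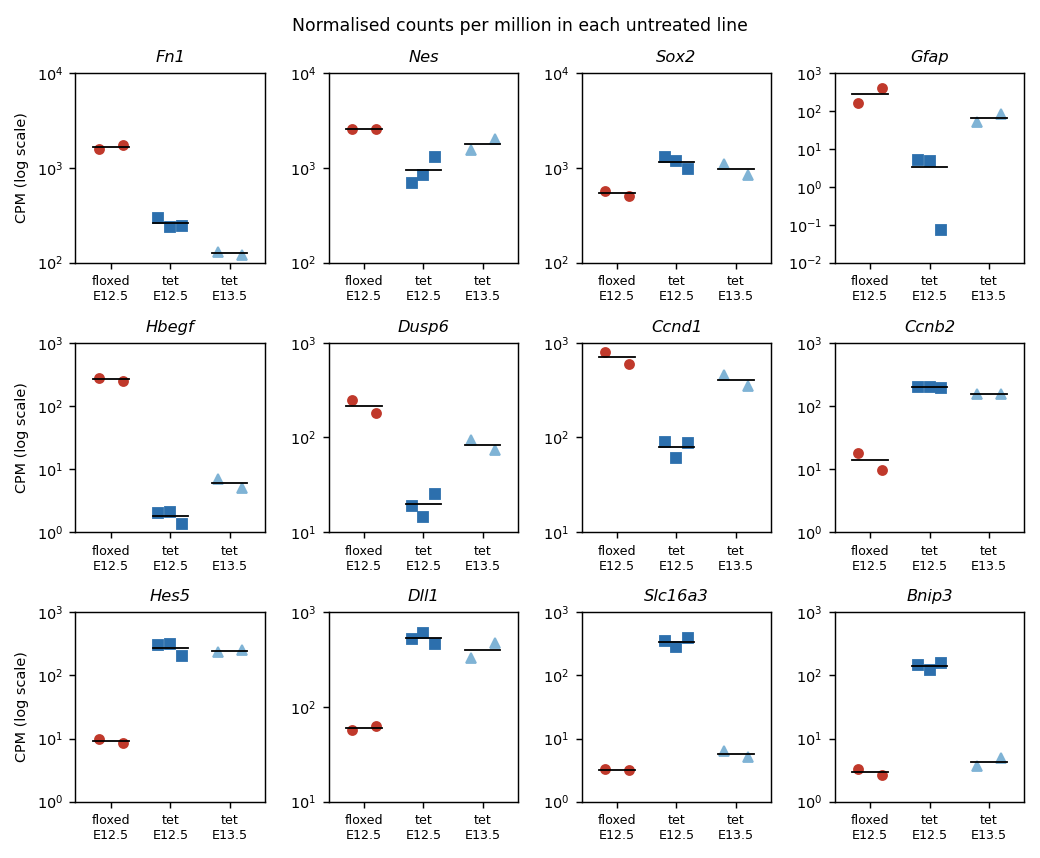
TMM-scaled CPM (log axis) of 12 genes in the floxed lines C1 and C4 (red circles), the tet lines KH2, MSI1 and MSI2 of E12.5 (dark squares, in this order) and KH2 and MSI1 of E13.5 (light triangles), with lines at the means and 1 point per line. The floxed points lie apart from the tet points of E12.5 for each of the 12 genes, and Slc16a3 and Bnip3 of E13.5 lie near the floxed points.

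Genes raised by low oxygen were far lower in the floxed lines than in the tet lines of E12.5. Of 22 hypoxia response genes tested, 21 were lower and 1, Pfkfb3, was higher, with a median of -2.40. Ndrg1 had 1.43 and 1.7 CPM in the floxed lines and 76.6, 62.4 and 108 CPM in the tet lines (log2 difference -5.72 ± 0.31 (SE), adjusted p = 3.18e-05), and Bnip3, a mitophagy receptor, had 3.28 and 2.66 against 148, 121 and 155 CPM (log2 difference -5.56 ± 0.19 (SE), adjusted p = 1.54e-05). Car9, a cell-surface carbonic anhydrase, had 0.175 and 0.572 against 23.3, 21.8 and 1.41 CPM. MSI2 was well below KH2 and MSI1 but above both floxed lines. The call for Car9 was lost without C1 (adjusted p = 0.0581). Vegfa, the angiogenic growth factor, and Ddit4, an inhibitor of mTORC1, were chosen after their values were seen. Vegfa had 2.22 and 2.88 against 50.8, 47.9 and 57.3 CPM. Ddit4 had 58.5 and 67.6 against 1425, 1519.7 and 1421 CPM. Pfkfb3, which makes the activator of phosphofructokinase, had 60.4 and 61.3 against 45.8, 46.6 and 38.1 CPM (log2 difference 0.48 ± 0.12 (SE), adjusted p = 0.0109). Without C4 its adjusted p was 0.0512, and between the drug-treated libraries of the same lines its log2 difference was -0.30.

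The difference in hypoxia genes went with the tet libraries of E12.5. In the tet lines of E13.5 Ndrg1 had 0.392 and 0.583, Bnip3 3.67 and 4.93 and Vegfa 5.92 and 4.95 CPM in KH2 and MSI1, in the range of the floxed lines or near it. Of 20 hypoxia genes tested against E13.5, 8 were higher in the floxed lines and 5 lower, with a median of 0.17. Ddit4 was an exception, with 379 and 361 CPM at E13.5 and an adjusted p of 4.28e-05 against the floxed lines. Stage, embryo, derivation of the culture and any batch cannot be told apart in the tet libraries of the 2 stages, which share the time label of 72 h. They also differed in the counted share of reads given above for E12.5, which was 28.2 to 32% at E13.5, and the part of this in the hypoxia values was not tested.

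Glycolysis followed the same order. Of 17 genes tested, 13 were lower in the floxed lines and 2 higher, with a median of -2.05. Slc16a3, which encodes the lactate exporter MCT4 (chromosome 11 at 120809794 to 120822182), had 3.25 and 3.21 CPM in the floxed lines and 348, 282 and 389.7 CPM in the tet lines (log2 difference -6.71 ± 0.20 (SE), adjusted p = 1.00e-05), a difference of 105-fold. Tpi1, triosephosphate isomerase, had 155 and 159 against 1349, 1105 and 1409 CPM, and Pfkl, the liver form of phosphofructokinase, had 124 and 139 against 976, 873 and 993 CPM. Hk2, a hexokinase that traps glucose in the cell, had 22.1 and 29.7 against 141, 118 and 183 CPM. Slc16a1, the other lactate transporter (MCT1), went the opposite way with 210 and 215 against 91.6, 78.7 and 81.8 CPM (log2 difference 1.34 ± 0.09 (SE), adjusted p = 6.29e-05). Summed over the 22 glycolysis genes, the floxed lines had 3711 to 3803 CPM and the tet lines 11783 to 13996. Against the tet lines of E13.5, 4 of the 17 were higher and 6 lower, with a median of -0.11, and Slc16a3 was at 6.42 and 5.08 CPM in KH2 and MSI1. Slc16a1 was higher in the floxed lines against both stages.

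Genes of lipid synthesis were more often lower than higher in the floxed lines against both stages, although the medians of both lists had the opposite sign under the RPKM scaling. Of 22 genes of cholesterol synthesis and its control, 14 were lower and 2 higher, with a median of -0.91. Between the drug-treated libraries of the same lines this was not so, with 6 higher and 6 lower of 22 and a median of -0.08. Stard4, a sterol carrier, had 22.8 and 25.8 CPM in the floxed lines and 71.4, 59.4 and 92.9 CPM in the tet lines. Of 16 genes of fatty acid synthesis, 10 were lower and 2 higher, with a median of -0.69. Acss2, which makes acetyl-CoA from acetate, had 9.72 and 12.4 against 134, 124 and 172 CPM (log2 difference -3.69 ± 0.21 (SE), adjusted p = 3.29e-05). Fads1 and Scd1, which desaturate fatty acids, had log2 differences of -2.05 and -1.88. Against the tet lines of E13.5 the 2 lists had 15 of 22 and 9 of 16 members lower and medians of -0.72 and -0.61.

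Genes of lipid efflux and aldehyde metabolism included large increases. Of 21 tested, 9 were higher (42.9%) and 6 lower (28.6%), beside 33.0% and 33.3% among all genes tested. Aldh1a3, which makes retinoic acid, had 224 and 219 CPM in the floxed lines and 6.44, 3.3 and 0.666 CPM in the tet lines (log2 difference 6.01 ± 0.59 (SE), adjusted p = 2.25e-04). Apoe, the lipid carrier made by astroglia, had 3563 and 3784 against 399, 613 and 140.3 CPM, and Abca1, which exports cholesterol to it, had 938 and 1061 against 115, 136 and 37 CPM. MSI2 was the lowest line for each of these 3 genes. Pdk4, a kinase that inhibits pyruvate dehydrogenase, had 2.3 and 1.45 against 19.7, 33.5 and 8.07 CPM and was lower in the floxed lines. In the tet lines of E13.5 Apoe was at 2349.6 and 2672 CPM, nearer to the floxed lines, while Aldh1a3 stayed at 6.49 and 5.42 CPM.

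Among genes of serine synthesis and the ATF4 response, the higher calls depended on a single line, MSI2, more than the lower calls did. Of 27 tested, 11 were lower, 1 was higher and 15 did not pass, with a median of -0.57. Asns, asparagine synthetase, chosen after its values were seen, had 186 and 221 CPM in the floxed lines and 73.9, 74.3 and 439.8 CPM in the tet lines and did not pass (adjusted p = 0.955), with MSI2 above and KH2 and MSI1 below the floxed lines. Without MSI2 its log2 difference was 1.45 (adjusted p = 4.45e-05). Cth, which makes cysteine, had 1.27 and 1.54 against 7.22, 9.62 and 17.9 CPM, again with MSI2 the highest. Without MSI2, 9 of the genes were higher and 13 lower, with a median of -0.15. Shmt1, which makes glycine from serine, was the 1 gene higher in the floxed lines, at 78.1 and 62.2 against 21.9, 16.8 and 19.6 CPM. In the E13.5 comparison 26 of the 27 were lower and 1 was higher, with a median of -2.21, and Asns had 878 and 666 CPM there.

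The mitochondrion's own genes were mostly higher in the floxed lines and the nuclear genes of the respiratory chain more often lower, the latter with the opposite sign under the RPKM scaling. Of 7 mitochondrially encoded genes tested, 4 were higher and 1 lower, with a median of 1.09, which was 0.25 between the drug-treated libraries, with 3 higher and 1 lower of 7. mt-Nd1, a subunit of complex I, had 12790 and 12875 CPM in the floxed lines and 4963, 6068 and 7099 CPM in the tet lines, and mt-Cytb, cytochrome b, had 18389 and 20403 against 8517, 8576 and 10075 CPM. The 1 that was lower, mt-Nd6, is the only protein gene on the other strand of the mitochondrial DNA. It had 284 and 370.3 against 2549.6, 3042 and 2998 CPM (log2 difference -3.13 ± 0.17 (SE), adjusted p = 3.29e-05). This gene also overlaps an exon of the opposite strand. With all genes that do so left out, 4 mitochondrially encoded genes remained to be tested, 4 higher and 0 lower. Of 63 nuclear genes of oxidative phosphorylation, 35 were lower and 2 higher, but by small amounts, with a median of -0.27. Uqcrh, a hinge protein of complex III, had 3.07 and 2.05 against 14, 9.29 and 12.1 CPM, and Ndufa4, one of the 2 that were higher, had 179 and 168 against 106, 107 and 103 CPM.

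Redox genes were mixed. Of 26 tested, 12 were higher (46.2%) and 9 lower (34.6%), beside 33.0% and 33.3% among all genes tested. Between the drug-treated libraries 8 were higher and 10 lower of 26. Srxn1, sulfiredoxin, had 46.1 and 33.2 CPM in the floxed lines and 2.41, 1.24 and 0.518 CPM in the tet lines (log2 difference 4.86 ± 0.42 (SE), adjusted p = 1.35e-04), and Hmox1, heme oxygenase, had 31.9 and 30.3 against 6.91, 5.89 and 9.03 CPM. Nqo1, a quinone reductase and like both of them a known target of NRF2, was lower in the floxed lines at 5.97 and 5.02 against 26.5, 27.6 and 15.9 CPM.

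Ligands and feedback inhibitors of EGF and FGF signalling were higher in the floxed lines. Of 25 genes tested, 19 were higher and 3 lower, with a median of 1.14. Hbegf, a membrane-bound ligand of the EGF receptor, had 282 and 247 CPM in the floxed lines and 2.02, 2.06 and 1.33 CPM in the tet lines (log2 difference 7.17 ± 0.18 (SE), adjusted p = 6.49e-06), a difference of 144-fold. Areg, the ligand amphiregulin, had 20 and 15.9 against 0.0776, 0.479 and 0.74 CPM. Tgfa, the ligand TGF alpha, had 24.7 and 16.3 against 2.79, 2.25 and 0.222 CPM. Both floxed lines were above all tet lines for each ligand.

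Dusp6 and Spry4 are switched on by ERK and dampen it. Dusp6, an ERK phosphatase, had 247 and 179.9 CPM in the floxed lines and 18.9, 14.6 and 25.5 CPM in the tet lines, and Spry4, chosen after its values were seen, had 98.8 and 84.1 against 13, 13.7 and 14.3 CPM. The receptors Egfr and Fgfr2 went the other way. Egfr had 28.1 and 21.2 against 67.3, 69.6 and 73.2 CPM (log2 difference -1.50 ± 0.15 (SE), adjusted p = 2.16e-04) and Fgfr2 had 34.4 and 32.5 against 54.8, 55 and 39.5 CPM (log2 difference -0.57 ± 0.16 (SE), adjusted p = 0.0199). Etv1, an ETS factor downstream of FGF, was the 1 further gene that was lower (log2 difference -0.50 ± 0.12 (SE), adjusted p = 0.0092). The calls for Fgfr2 and Etv1 were lost without C1 (adjusted p = 0.0827 and 0.0847) and without C4 (0.12 and 0.0523), and that for Fgfr2 also without KH2 (0.055) or MSI1 (0.0565). Under the RPKM scaling both had the opposite sign. In the E13.5 comparison 18 were higher and 3 lower, with a median of 1.03. There Hbegf had 6.99 and 4.98 CPM, Dusp6 94.4 and 73.9 CPM and Egfr 127 and 123 CPM in KH2 and MSI1.

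Immediate early genes changed in both directions. Of 20 tested, 8 were higher (40%) and 6 lower (30%), near the shares of all genes tested (33.0% and 33.3%). Fosl1, the Fra-1 subunit of AP-1, had 60.3 and 58.7 CPM in the floxed lines and 1.4, 1.15 and 1.04 CPM in the tet lines (log2 difference 5.64 ± 0.14 (SE), adjusted p = 6.49e-06), with 68.1% of its exon bases under an exon of the opposite strand. Egr3 had 25.1 and 26.5 against 1.16, 1.91 and 1.11 CPM, and Myc had 279 and 282 against 25, 25 and 37.5 CPM. Btg2, an antiproliferative gene, and Jund, the AP-1 subunit of resting cells, were lower in the floxed lines. Btg2 had 15.5 and 16.1 against 229, 248 and 203 CPM, and Jund had 161 and 165 against 729, 731 and 642 CPM. Fos had 52.5 and 54.7 against 178, 275 and 61.2 CPM, a wide spread within the tet set in which MSI2 was near the floxed lines (log2 difference -1.68 ± 0.56 (SE), adjusted p = 0.0351), and at E13.5 it had 32.8 and 40.2 CPM, below the floxed lines. Its call was lost without C1 (adjusted p = 0.138), C4 (0.127), KH2 (0.0859) or MSI1 (0.0877).

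Notch pathway genes were mostly lower in the floxed lines, among them the ligand Dll1, the receptor Notch1 and the target Hes5. Of 22 genes tested, 15 were lower, 4 higher and 3 did not pass, with a median of -1.32. Under the RPKM scaling the count was 8 higher and 8 lower of 20. With genes that overlap an opposite-strand exon left out it was 4 higher and 10 lower of 17, with a median of -0.68. Dll1, the ligand Delta-like 1, had 57 and 63.5 CPM in the floxed lines and 528, 612 and 468 CPM in the tet lines (log2 difference -3.15 ± 0.15 (SE), adjusted p = 2.40e-05), with 20.5% of its exon bases under an exon of the opposite strand. Notch1, the receptor, chosen after its values were seen, had 11.3 and 12.6 against 43.5, 39.1 and 31.1 CPM. Hes5, the Notch target that keeps radial glia undifferentiated (chromosome 4 at 154335032 to 154336480), had 9.83 and 8.39 against 305, 312 and 202 CPM (log2 difference -4.90 ± 0.25 (SE), adjusted p = 2.59e-05), a difference of 29.9-fold, with 31.8% of its exon bases under an exon of the opposite strand. Nrarp, a target that feeds back on the receptor complex, had 7.59 and 6.34 against 81.4, 77.1 and 60.3 CPM and no exon base under an opposite-strand exon.

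The 4 genes that were higher were ligands and sugar-modifying enzymes. Jag1 and Jag2 encode the Jagged ligands. Jag1 had 39.9 and 57.2 CPM in the floxed lines and 25.5, 18.6 and 24.8 CPM in the tet lines. Jag2 had 14.6 and 9.11 against 2.17, 2.78 and 2.44 CPM. Lfng and Rfng, fringe glycosyltransferases that set which ligand a receptor answers to, differed by 0.57 and 0.37 (Rfng no longer passed without C4, with adjusted p = 0.118), and the third fringe gene, Mfng, differed by -4.31. Hes1, a target shared with other pathways and chosen after its values were seen, had 45.2 and 61.5 against 48, 43.5 and 82.8 CPM and did not pass (adjusted p = 0.736). Against the tet lines of E13.5, 13 genes were lower and 1 higher, with a median of -0.78, and Hes5 had 239 and 250 CPM in KH2 and MSI1.

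**Figure D3:**
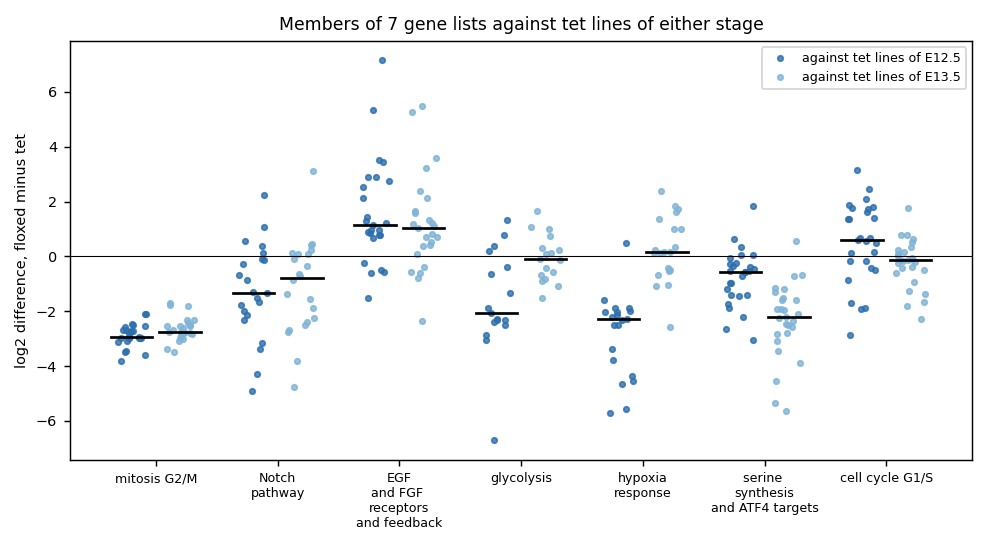
Log2 difference (floxed minus tet, y axis) of each member of 7 gene lists, for the members tested against the tet lines of both stages, with the tet lines of E12.5 in dark and of E13.5 in light blue and bars at the medians. The mitosis members stay below 0 against either stage, while the hypoxia and glycolysis members lie mostly below 0 against E12.5 and around 0 against E13.5. Both comparisons share C1 and C4.

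Wnt, Hedgehog, BMP and YAP pathway genes changed in both directions, beside 33.0% higher and 33.3% lower among all genes tested. Of 29 Wnt pathway genes tested, 8 were higher and 14 lower. Wnt5a, a noncanonical ligand, had 21.4 and 16.6 CPM in the floxed lines and 81.9, 109.8 and 117 CPM in the tet lines, and the feedback inhibitor Nkd1 had 10.2 and 8.21 against 80.2, 135 and 275 CPM. Apcdd1, another inhibitor, had 28.8 and 23.5 against 195, 245 and 184 CPM. Fzd1, a receptor, was higher in the floxed lines at 139.8 and 169.5 against 35.8, 26.1 and 33.8 CPM. Wnt2, a ligand outside that list, was among the leading genes, at 19.2 and 20 against 0, 0 and 0.074 CPM. Of 9 Hedgehog genes, 6 were lower and 3 higher. Ptch1, the receptor and a target, had 222 and 189 against 554, 592 and 562 CPM, and Gli2, an effector, had 16.4 and 19.5 against 60.7, 60.8 and 59.2 CPM. The ligand Shh was low, at 2.15 and 1.54 against 0.155, 0.0479 and 0 CPM.

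Of 30 BMP and TGF beta genes, 9 were higher and 10 lower, near the shares of all genes tested (33.0% and 33.3%). With at least 1 CPM in all 5 lines the count was 5 higher and 10 lower of 25. Smad9, an effector of BMP receptors, had 11.9 and 6.32 CPM in the floxed lines and 1.16, 1.2 and 0.222 CPM in the tet lines, and Inhbb, an activin subunit, had 34.8 and 33.6 against 100.3, 108 and 96.6 CPM. Among 12 Hippo genes tested, 5 were higher (41.7%) and 4 lower (33.3%). The YAP targets F3, Cyr61 and Ctgf differed by 2.49, 1.74 and 2.13 (Ctgf no longer passed without C1 or MSI1, with adjusted p = 0.153 and 0.0561), and the partner factor Tead2 differed by -2.24, with 71.7 and 54.4 against 291, 291 and 314 CPM.

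Of 22 interferon response genes tested, 15 were lower and 3 higher, with a median of -1.26 that had the opposite sign under the RPKM scaling (0.43). With at least 1 CPM asked of all 5 lines the count was 3 higher and 8 lower of 14, with a median of -0.51. H2-K1, a class I antigen-presenting molecule, had 6.7 and 4.03 CPM in the floxed lines and 35.2, 31.4 and 42.4 CPM in the tet lines. The guanylate-binding proteins Gbp2 and Gbp3 were higher in the floxed lines instead. Gbp2 had 137 and 124 against 14, 15.8 and 9.7 CPM, and Gbp3 had 74.3 and 60.5 against 4.58, 5.55 and 2.96 CPM. Reads of Gbp and Ifi genes can be shared with near-identical copies in the genome, so their values are uncertain.

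Genes of progenitor identity changed in both directions. Of 19 neural stem and radial glia genes, 5 were higher (26.3%) and 6 lower (31.6%), near the shares of all genes tested (33.0% and 33.3%). Nes, which encodes Nestin, had 2575 and 2558 CPM in the floxed lines and 693, 851 and 1293 CPM in the tet lines (log2 difference 1.44 ± 0.25 (SE), adjusted p = 0.00242), and Tnc, the matrix protein tenascin C, had 1099 and 970.1 against 328, 348 and 428 CPM. Sox2 and Sox3 are factors that maintain progenitors. Sox2, chosen after its values were seen, had 575 and 511 against 1314, 1191 and 979.7 CPM. Sox3 had 99.4 and 85.2 against 239, 276 and 279 CPM. Prom1, the surface marker CD133, had 10.9 and 5.86 against 20.9, 21.4 and 17.6 CPM. Nes and Tnc were higher and these 3 genes lower in the floxed lines, with no overlap between the sets. Fut4, which makes the epitope SSEA1, had 3.47 and 3.08 against 0.698, 0.909 and 0.963 CPM. Under the RPKM scaling, which raises the typical gene of the floxed lines by 1.03, Sox2 (-0.0085) and Prom1 (-0.17) no longer passed.

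Genes that mark regions of the early brain changed in both directions, beside 33.0% higher and 33.3% lower among all genes tested. Of 9 dorsal forebrain genes tested, 1 was higher and 3 lower. Emx2 and Nr2f1 are factors that pattern the cortex. Emx2 had 15.3 and 16.1 CPM in the floxed lines and 30.7, 33 and 32.3 CPM in the tet lines, and Nr2f1 had 110.1 and 87.7 against 207, 173 and 250.3 CPM. Of 9 ventral forebrain genes, 4 were higher and 1 lower, but some, Dlx2 among them, entered the test through the floxed lines alone. With at least 1 CPM asked of all 5 lines the count was 1 higher and 1 lower of 6, with a median of -0.21. The ventral factor Dlx2 had 3.25 and 1.65 against 0, 0.527 and 0.37 CPM, below its level of 5.96 and 5.85 CPM in the tet lines of E13.5. Olig2, a factor of ventral progenitors and oligodendrocytes, was high in every line at 812 and 668 against 534, 492 and 520.2 CPM (log2 difference 0.52 ± 0.11 (SE), adjusted p = 0.00565). Of 7 midbrain, hindbrain and cord genes tested, 3 were higher and 1 lower.

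Genes of neurons and of astrocytes were more often higher in the floxed lines. Of 15 neuronal genes tested, 9 were higher and 3 lower, with a median of 1.12. Nefl, the light neurofilament, had 272 and 239.8 CPM in the floxed lines and 1.4, 3.02 and 1.93 CPM in the tet lines (log2 difference 6.86 ± 0.26 (SE), adjusted p = 1.92e-05). Nefm, the medium one, had 142 and 89.1 against 3.34, 5.74 and 6.07 CPM. Of their exon bases, 32.8% and 19.2% lie under an exon of the opposite strand. Snap25, a synaptic protein, had 8.29 and 7.64 against 1.16, 1.82 and 0.963 CPM. Tubb3, the neuronal tubulin, and Sox11, a factor of young neurons, were lower in the floxed lines. Tubb3 had 23.4 and 30 against 32, 41.4 and 43.5 CPM, and Sox11 had 97.6 and 67.9 against 141, 157 and 162 CPM. The call for Tubb3 was lost without C1 (adjusted p = 0.207) or MSI1 (0.0787), and under the RPKM scaling Tubb3 and Sox11 had the opposite sign. The largest increases in the list were those of the 2 neurofilament genes.

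Of 12 astrocyte genes tested, 7 were higher and 1 lower, with a median of 1.36. The median was 0.72 over the 11 genes with at least 1 CPM in all 5 lines and 2.65 over the 9 that overlap no opposite-strand exon. Gfap, the astrocytic filament, had 162 and 419 CPM in the floxed lines and 5.2, 4.79 and 0.074 CPM in the tet lines (log2 difference 6.40 ± 0.85 (SE), adjusted p = 7.45e-04). Its levels were unequal within each set, with C4 above C1 and MSI2 far below KH2 and MSI1. Cd44, a hyaluronan receptor, had 182 and 195 against 11.3, 13 and 17.5 CPM (log2 difference 3.76 ± 0.18 (SE), adjusted p = 2.41e-05), and S100b, a calcium-binding protein, had 22.3 and 21.7 against 3.8, 3.59 and 2.15 CPM. At E13.5 Gfap had 52.9 and 82.4 CPM and Cd44 had 20 and 20.1 CPM, so that Gfap lay between the 2 sets of E12.5 and Cd44 near the tet lines of E12.5. Of 10 oligodendrocyte lineage genes, 3 were higher (30%) and 3 lower (30%), near the shares of all genes tested (33.0% and 33.3%). Sox8 and Cspg4 (NG2) are genes of oligodendrocyte precursors. Sox8 had 172 and 163 against 916, 924 and 688 CPM, and Cspg4 had 152 and 187 against 335, 357 and 471 CPM. Gpr17, a receptor of maturing precursors, had 20.7 and 39 against 8.07, 10.9 and 5.85 CPM.

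The study followed epithelial and mesenchymal states. Of 3 epithelial genes tested, 2 were higher in the floxed lines and none lower, at low levels, with 4.92 and 3.57 CPM in the floxed lines and 0.854, 1.63 and 1.7 CPM in the tet lines for the adhesion molecule Epcam. The other 12 of the 15 epithelial genes measured were below the filter. Of 13 mesenchymal genes, 5 were higher (38.5%) and 2 lower (15.4%), beside 33.0% and 33.3% among all genes tested. Acta2, smooth muscle actin, had 314 and 203 against 24.7, 18.4 and 7.18 CPM (log2 difference 3.94 ± 0.46 (SE), adjusted p = 4.47e-04), and Tagln, another contractile protein, had 41.3 and 56.8 against 5.12, 8.42 and 1.56 CPM. Cdh2, N-cadherin, had 619.5 and 719 against 441, 418 and 357 CPM, and Itga5, the fibronectin receptor subunit, had 203 and 240.3 against 63.6, 58.6 and 45 CPM. Zeb2, a repressor of E-cadherin, and Thy1, a surface glycoprotein, were lower in the floxed lines. Zeb2 had 163 and 179.9 against 277, 319 and 249.8 CPM, and Thy1 had 5.6 and 2.69 against 35.2, 34.5 and 17.8 CPM.

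The genes of collagen VI were higher in the floxed lines. Of 22 collagen genes tested, 8 were higher (36.4%) and 4 lower (18.2%), with a median of 0.83. Among all genes tested the shares were 33.0% and 33.3%. With at least 1 CPM asked of all 5 lines the count was 5 higher and 4 lower of 16, with a median of 0.45, and between the drug-treated libraries the median was 0.25. Col6a1, Col6a2 and Col6a3 encode the 3 chains of this beaded filament. Col6a1 had 69.4 and 155 CPM in the floxed lines and 16, 14.5 and 5.48 CPM in the tet lines. Col6a2 had 52 and 102 against 4.35, 2.92 and 0.222 CPM. Col6a3 had 39.3 and 74.2 against 2.64, 1.05 and 0.296 CPM (log2 difference 5.46 ± 0.56 (SE), adjusted p = 2.69e-04). For each chain C4 was above C1 and MSI2 was the lowest of the 5 lines. Collagen IV of the basement membrane went the other way, with 89.1 and 106 against 255, 285 and 188 CPM for Col4a1. Col1a1, the locus that holds the Musashi transgenes, had 1.48 and 3.74 against 4.11, 3.21 and 4.22 CPM and did not pass (adjusted p = 0.281), but without C4 it did (0.0313).

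Of 12 laminin and basement membrane genes, 5 were higher (41.7%) and 3 lower (25%), beside 33.0% and 33.3% among all genes tested. Lamc1, the common laminin chain, had 718 and 703 CPM in the floxed lines and 261, 331 and 434 CPM in the tet lines, and Lama5 had 91.5 and 109.6 against 255, 279 and 342 CPM. Of 24 matrix glycoproteins, 9 were higher (37.5%) and 10 lower (41.7%), near the shares of all genes tested. Thbs1, thrombospondin 1, had 28 and 28.6 against 1.63, 0.814 and 0.889 CPM (log2 difference 4.71 ± 0.26 (SE), adjusted p = 3.35e-05), Fbn2, fibrillin 2, had 138 and 148 against 26.1, 23.4 and 32.7 CPM, and Eln, elastin, had 2.81 and 2.55 against 25.3, 25 and 20.1 CPM. The 2 insulin-like growth factor binding proteins listed went apart. Igfbp3 had 446 and 512 against 59.7, 50.6 and 139.7 CPM and Igfbp5 had 46.1 and 57.4 against 515, 504 and 535 CPM. At E13.5 the level of Igfbp5 was 38.8 and 59.5 CPM, a range that overlaps that of the floxed lines (adjusted p = 0.821).

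Of 18 proteoglycan genes, 7 were higher (38.9%) and 8 lower (44.4%), beside 33.0% and 33.3% among all genes tested. Acan, aggrecan, had 33.6 and 25.8 CPM in the floxed lines and 2.17, 1.1 and 0.963 CPM in the tet lines (log2 difference 4.43 ± 0.31 (SE), adjusted p = 6.64e-05), and the glypicans differed in direction, with 1.32 for Gpc4, -1.51 for Gpc1 and -2.55 for Gpc6. Of 15 integrin genes, 7 were higher (46.7%) and 3 lower (20%). Itga7, a laminin receptor subunit, had 658 and 585 against 163, 139 and 116 CPM, and Itga9 had 16.7 and 18 against 0.698, 1.44 and 2.89 CPM.

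Of 24 matrix proteases, inhibitors and crosslinking enzymes, 11 were higher (45.8%) and 10 lower (41.7%), beside 33.0% and 33.3% among all genes tested. Timp1, an inhibitor of metalloproteases, had 51.3 and 79.9 CPM in the floxed lines and 19.5, 12.7 and 7.26 CPM in the tet lines. Loxl2, which crosslinks collagen, had 6.23 and 7.46 against 209, 171 and 252 CPM (log2 difference -4.94 ± 0.22 (SE), adjusted p = 2.28e-05). P4ha1 and Plod2 encode hydroxylases of collagen. P4ha1 had 76.1 and 82.6 against 288, 272 and 315 CPM, and Plod2 had 107 and 109 against 501, 431 and 609.9 CPM. The tet lines of E13.5 did not have these high levels, with 4.35 and 3.77 CPM of Loxl2 and 58.1 and 65.6 CPM of Plod2, as for the hypoxia genes. P4ha1 is also in the hypoxia list.

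The genes with the largest differences were of many kinds. Ifi202b, an interferon-inducible gene, was at 0 in all 3 tet lines and at 165 CPM in C1 but 1.12 CPM in C4. Against a floor of 3 counts over the tet set it was at least 1459.9-fold higher, a value that rests on C1, and its call was lost without KH2 (adjusted p = 0.0808) or MSI1 (0.0803). Ifi204, of the same family, was likewise at 0 in the tet lines and at least 241-fold higher. Nov, a matricellular protein, had 15.5 and 12.6 CPM in the floxed lines and 0, 0 and 0.074 CPM in the tet lines, Plaur, the urokinase receptor, had 27 and 33.3 against 0.233, 0.239 and 0 CPM, and Penk, the enkephalin precursor, had 10 and 15.3 against 0, 0.0957 and 0 CPM. Tead4, a partner of YAP, had 18.3 and 16.6 against 0, 0 and 0.296 CPM, and Gabra5, a GABA receptor subunit, had 30.5 and 22.2 against 0, 0.144 and 0 CPM, where 3 counts in the tet set gave a ratio of 422 (95% counting interval 144 to 2049.9). For Wnt2, with 1 count in the tet set, the ratio was 921 (165 to 36407). Counting intervals cover counting error only. The genes of this group entered the test through the floxed lines alone.

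Among the genes lowest in the floxed lines were Slc24a5, an ion exchanger of pigment cells, and Eps8l3. Slc24a5 had 0.0175 and 0 CPM in the floxed lines and 104, 96.8 and 108 CPM in the tet lines and Eps8l3 had 0 and 0 against 24.4, 28 and 22 CPM, with 39.5% and 42.4% of their exon bases under an exon of the opposite strand. Gm10197, 1700019G06Rik, Gm10401 and Map3k4 were also in this group, at 0 in both floxed lines. Of their exon bases, 96.5%, 100%, 100% and 99.3% lie under an exon of the opposite strand. In footprints Gm10197 differed by -3.08, but 1700019G06Rik by 0.05 and Map3k4 by 0.28, and Gm10401 was not tested. The genes of this group entered the test through the tet lines alone. It also held the Y-linked genes Ddx3y, Eif2s3y and Kdm5d. Ddx3y had 0 and 0 against 0.0776, 95.6 and 117 CPM, so MSI1 and MSI2 had Y-linked mRNA and KH2, C1 and C4 had none or a trace. The calls for all 3 were lost without C1 or C4, with adjusted p = 0.0655 and 0.0604 for Ddx3y. The lines of the tet set thus differed in Y-linked expression, and its part in other genes was not tested.

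Opposite-strand overlap went with the lowest values in a wider class. No source used here states whether counting used strand. Among 24 tested genes with at least 90% of exon bases under an exon of the opposite strand, 18 were lower in the floxed lines and 2 higher, 16 (66.7%) by 4-fold or more, with a median of -7.95. Among 9149 genes with no such base, 2969 were lower and 3076 higher, 584 (6.38%) lower by 4-fold or more, with a median of 0.02. Genes of the 90% class that were near 0 in the floxed lines entered the test through the tet lines alone. The filter thus set part of its share and median. All genes of the class, those below the filter included, summed to 139 to 143 CPM in the floxed lines. In the tet lines of E12.5 they summed to 681 to 827 CPM (both of library totals, with no TMM factor). Against the tet lines of E13.5, 9 genes of the class were tested, with 2 lower, 2 higher and a median of 0.19. The medians against the 2 stages are thus not over the same genes. In footprints of E12.5, 18 genes of the class were tested, 5 of them lower, with a median of -0.24. For a gene in such an overlap the reads of the 2 strands cannot be told apart if strand was not used. With all genes that overlap an opposite-strand exon left out, 6090 of 9326 genes passed, 3041 higher and 3049 lower.

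**Figure D4:**
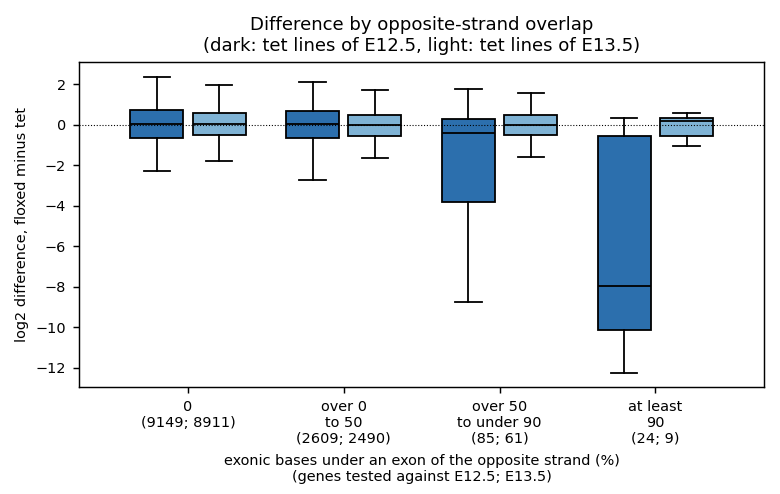
Log2 differences (floxed minus tet, RNA) of genes grouped by the share of their exon bases under an exon of the opposite strand, as boxes (median and quartiles) with whiskers from the 5th to the 95th percentile, against the tet lines of E12.5 (dark) and of E13.5 (light). The class of at least 90% has a median of -7.95 over 24 genes against E12.5 and 0.19 over 9 genes against E13.5. Its genes near 0 in the floxed lines entered the test through the tet lines alone. The class with no overlap has medians of 0.02 and 0.01.

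The engineered genes were as follows. Msi1 had 43.5 and 15.7 CPM in the floxed lines and 69.4, 68.6 and 36 CPM in the tet lines (log2 difference -0.97 ± 0.47 (SE), adjusted p = 0.11) and did not pass, with C4 below C1 and MSI2 below KH2 and MSI1. Msi2 had 17.5 and 13.9 against 21.5, 23.3 and 17.2 CPM and did not pass either (adjusted p = 0.0907). Without MSI2 both passed as lower in the floxed lines (adjusted p = 0.034 for Msi1 and 0.0235 for Msi2), and without C1 Msi1 did (0.0147). Reads of both genes were thus counted in C4, the line with CreER. Counts per gene do not show whether the floxed alleles were intact. Whether some cells of C4 had recombined without 4-OHT was not tested. The Rosa26 locus lies beside Thumpd3 and Setd5. Thumpd3, a tRNA methyltransferase (chromosome 6 at 112996219 to 113018267), had 187 and 199 against 30.5, 28.9 and 24.8 CPM (log2 difference 2.78 ± 0.11 (SE), adjusted p = 2.10e-05), with no overlap between the sets, and at E13.5 the tet lines had 55.7 and 62.4 CPM. Setd5, a chromatin regulator, had 391 and 399 against 647, 679 and 781 CPM (log2 difference -0.83 ± 0.11 (SE), adjusted p = 7.48e-04). Of the genes tested within 2 Mb of the engineered loci, those called, against 66.3% of all genes, were 34 of 49 around Msi1, 26 of 35 around Msi2, 22 of 33 around Col1a1 and 20 of 29 around Rosa26.

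Imprinted genes, which are expressed from 1 parental allele, had 7 members higher (36.8%) and 9 lower (47.4%) of 19 tested. Among all genes tested the shares were 33.0% and 33.3%. Dlk1, an inhibitor of differentiation, had 29.2 and 42.3 CPM in the floxed lines and 7.22, 5.55 and 4.22 CPM in the tet lines. Meg3, the noncoding RNA of the same locus, had 10.4 and 11.5 against 2.33, 2.01 and 0.444 CPM. Grb10, a growth inhibitor, had 7.38 and 8.85 against 104, 74.2 and 49.1 CPM, and H19 had 1.03 and 1.74 against 11.9, 10.8 and 11.3 CPM.

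Ribosome footprints of 4 of the lines gave a second readout. Untreated C1, C4, KH2 and MSI1 were also measured by Ribo-Seq, which sequences the mRNA pieces that ribosomes protect, while no footprints of MSI2 were in the set used. Footprints of the same cultures are not independent cultures, and the library of KH2 had an unusual composition, with a TMM factor of 0.336. Of 12097 genes tested, 3829 passed (31.7%), 1950 higher and 1879 lower. Among 10447 genes tested in both readouts, 3283 passed in footprints (31.4%), 16.3% higher and 15.1% lower in the floxed lines. Of the RNA calls in these genes, 2650 of 6968 (38.0%) were called in the same direction in footprints, which is 80.7% of the footprint calls, and 118 were called in opposite directions.

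The mitosis genes were lower in footprints too, 25 of 25, with a median of -2.64 against 0.04 for all genes. Of 21 hypoxia genes, 18 were lower, with a median of -2.17, and of 16 glycolysis genes 10 were lower and 1 higher. Of 21 Notch genes, 12 were lower and 1 higher, and of 24 EGF and FGF genes 9 were higher and 1 lower. Hes5 differed by -5.23 in footprints, Slc16a3 by -5.74, Hbegf by 6.29 and Ccnd1 by 2.80. The nuclear genes of oxidative phosphorylation had 4 higher and 6 lower of 63 in footprints, with a median of 0.04.

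Vim, Jag1 and Tubb3 are shown for their unlike values in the 2 readouts and were chosen for this after those values were seen. Vim had a log2 difference of 0.23 in RNA and 1.72 in footprints (adjusted p = 0.00116), where it had 2727 and 2565 CPM in C1 and C4, 787 CPM in KH2 and 815 CPM in MSI1. Jag1 was higher in RNA, at 1.09, and lower in footprints, at -1.67 (adjusted p = 0.0201). Its footprint levels were 31.2 and 32.6 CPM in C1 and C4, 36.4 CPM in KH2 and 159 CPM in MSI1, so that the lower call rests on MSI1. Tubb3 was lower in RNA, at -0.55, and higher in footprints, at 1.41 (adjusted p = 6.16e-04), with 215 and 184 CPM in C1 and C4, 69.4 CPM in KH2 and 80.2 CPM in MSI1. The difference between the readouts was not tested, and MSI2 is in the RNA comparison alone.

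**Figure D5:**
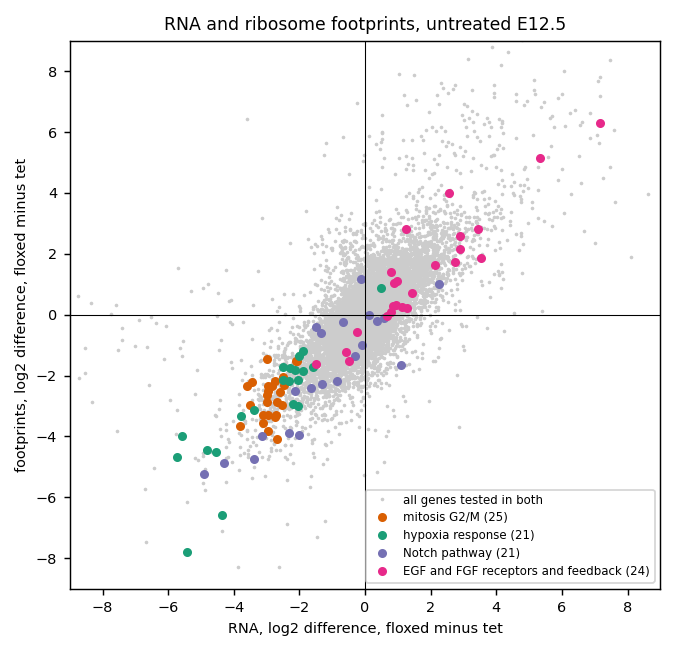
Log2 difference between the sets in footprints (y axis, floxed minus tet, without MSI2) against that in RNA (x axis) for the 10447 genes tested in both (grey) and the members of 4 lists (coloured, number in brackets), with 39 genes outside the axes. The mitosis members all lie in the lower left, where both readouts are lower in the floxed lines.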

How the data were processed

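Cortical neural stem cell lines were profiled by the authors with polyA RNA-Seq (paired ends) and Ribo-Seq. Per the labels, reads were mapped with TopHat and Bowtie to mm9, with versions not given in the sources used here. The authors deposited raw read counts per gene together with RPKM for each library, and no source states whether counting used strand. Counts were the values tested, and the deposited RPKM served as an alternative scaling. Every deposited table holds 22623 genes, of which 20966 were given a symbol from the reference gene names and 151 from the footprint tables.

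Counts were tested with edgeR 4.0.16 in R 4.3.3 (glmQLFit, TMM, genes with at least 1 CPM in at least 2 of the libraries fitted, Benjamini-Hochberg adjusted p under 0.05), 2 floxed against 3 tet libraries, with no covariate. An SE is the log2 difference divided by the root of its F statistic. Single values per library were compared with a two-sided exact permutation test. Footprint counts of C1, C4, KH2 and MSI1 and the RNA of the tet lines of E13.5 were fitted in the same way, each with a normalization of its own. Alternatives were other scalings, DESeq2 1.42.0, limma 3.58.1 with voom and on log2(RPKM + 0.5), other filters, thinning to equal depth, each line left out, the drug-treated libraries of the same lines and, added after the data were seen, the genes with no opposite-strand exon. The scripts were tested on simulated data. Depth was 12901123 to 56980623 counts in RNA and 1865120 to 6381242 in footprints.

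The members and the 43 gene lists were chosen with earlier results of these data known. Genes were named by rule: the 3 markers, the engineered and the Y-linked genes, the 10 largest differences in each direction among genes that passed with sets that did not overlap and a mean of at least 10 CPM in the higher set, and up to 4 genes per list and direction. Names added outside this rule were picked with their values in view, which the text says for each of them, and a few genes that the rule named are not reported here. Overlap with exons of the opposite strand was computed from the GENCODE annotation of mm9. Alternative splicing, differences of translation from RNA level and the drug treatments were not analysed here.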

Additional observations from a re-analysis of the deposited data

How the results depend on the processing

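Of the 163 genes named, DESeq2, RLE size factors, library totals and no filter on low counts kept the direction and the side of the threshold of all but Vim, which passed with DESeq2. With RLE, library totals, DESeq2 and voom the number of genes called was 8090, 8089, 8270 and 8337, and leaving out 1 line at a time gave 5999 to 8483, the lowest without C4 and the highest without MSI2. Of the named genes, 151, 151, 163, 160 and 160 could be tested without C1, C4, KH2, MSI1 and MSI2 respectively. None of those changed direction, and 9, 8, 3, 5 and 0 lost their call. Without C1 or C4 the lone floxed library was assumed to vary like the tet lines, and 12 genes low in the tet lines, Areg, Plaur and Wnt2 among them, left the test, as the Y-linked genes did without MSI1 or MSI2. With voom 6 named genes lost their call (Car9, Ddx3y, Eif2s3y, Fos, Ifi202b and Kdm5d), and on log2(RPKM + 0.5) 10 of 155 did, these 6 among them. Against the tet lines of E13.5 and without genes that overlap an opposite-strand exon, 5076 genes passed, 2482 of them by at least 2-fold. Leaving out 1 line at a time gave 2347 to 4319 genes called in footprints, the lowest without MSI1, when the lone tet library KH2 was assumed to vary like the floxed pair.

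On log2(RPKM + 0.5) the log2 differences of Cd24a (0.80), Emx2 (0.048), Etv1 (0.51), Fgfr2 (0.49), Hes1 (0.97), Msi2 (0.68), Nr2f1 (0.0029), Setd5 (0.25), Sox11 (0.16), Tubb3 (0.49) and Zeb2 (0.36) turned positive, all below the shift of 1.03 that this scaling gives the median gene. Against the tet lines of E13.5 the sign turned for Asns (-1.93), Cd24a (0.66), Dlx2 (-1.27), Fos (0.54), Gpr17 (-0.72), Igfbp5 (0.062), Loxl2 (0.75), Ndrg1 (1.62), Ndufa4 (-0.087), Nr2f1 (0.16), P4ha1 (0.35), Pfkl (0.31) and Plod2 (0.80). Between the drug-treated libraries of the same lines it turned for Pfkfb3 (-0.30). The cause of these changes was not tested. No paired analysis was possible because the replicate numbers only name different lines and each line of E12.5 gave 1 RNA-Seq library per treatment.

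With 1 library per line, genes near the filter rest on few counts, and a fold against a set at 0 is a bound. Genes under an exon of the opposite strand, near-identical copies and genes of the footprint library KH2, whose TMM factor was 0.336, are the least certain values here.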
